A study of Bos taurus with 12 samples.

Results

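Fatty acids (FA) enter oxidation in 2 stages, and the 9 genes described here cover both: long-chain acyl-CoA synthetases (ACSL1, ACSL3, ACSL4 and ACSL5), and the carnitine system (CPT1B, SLC25A20, CPT2, CRAT and SLC22A5). They were chosen by name, with earlier results of these data known. Of the 9, 8 were found among the 12639 genes that the RefSeq accessions of the array name. The 8 genes have 21 probes, and no probe was matched to ACSL4, which is not analysed here.

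Expression was measured with 1-colour Agilent bovine arrays in mammary gland (MG) biopsies of 12 multiparous Holstein cows in early lactation, with 1 array per cow. The diets began at 24 ± 3 days in milk, and the biopsies came at the end of the 4 d described next. The 6 CONT cows (diet label Control) kept free access to a lactation ration, and in the 6 REST cows (diet label Restricted) barley straw made up 48% of the dry matter fed over 4 d. The comparison is between diets in challenged glands, because lipopolysaccharide (LPS, 50 µg) was given in both diets. It went into a rear gland without disease, 24 h before the biopsy. Ages of the cows are not given in the sources used here. Each array carries the RNA of a separate cow, and the number of arrays limits the precision.

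An acyl-CoA synthetase joins a free FA to coenzyme A. The acyl-CoA can then be used for triglyceride or phospholipid synthesis, or be handed to carnitine for transport into mitochondria. On the outer mitochondrial membrane a carnitine palmitoyltransferase 1, of which CPT1B is the isoform best known from muscle, forms acylcarnitine. The translocase SLC25A20 carries acylcarnitine across the inner membrane in exchange for carnitine, and CPT2 forms the acyl-CoA again inside. CRAT exchanges acetyl groups between coenzyme A and carnitine, and SLC22A5 (OCTN2) takes carnitine up into the cell. In the lactating MG, much of the activated FA goes into milk fat.

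Values are log2 signals, each minus the 75th percentile of its own array, so a value above 0 is a signal above that percentile. The brightest probe stands for a gene, and the brightest probe of each of the 8 genes was well above background on all 12 arrays. Levels of different probes are not comparable with each other, so each gene is compared only with itself. The FC is REST over CONT on the linear scale. Its log2 was tested with limma, and p-values were adjusted over all 43653 probes by the Benjamini-Hochberg (BH) method.

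No probe of the array passed an adjusted p of 0.05 (limma, BH, 0% of probes called, lowest adjusted p 0.777). The Westfall-Young adjustment called 0 as well, with a lowest adjusted p of 0.29. The paper lists SLC25A20 and CPT1A, among other genes, as higher in REST under its own Westfall-Young adjustment at 0.05. Here SLC25A20 did not pass that adjustment, and the cause of this departure from the paper was not tested. Before adjustment, 1143 probes (2.62%) had a p under 0.05 (limma), of which 761 (1.74% of all probes) were higher in REST. Each of the 8 genes had an adjusted p that rounds to 1 (limma, BH). The differences below are therefore described with their intervals and unadjusted p-values, and none of them passed the test.

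The arrays lay on 3 slides of 4. Slide 1 held 3 CONT arrays and 1 REST array, slide 2 held 1 CONT and 3 REST, and slide 3 held 2 of each. Negative control signals (mean over spots of the median signal of each spot) were 67.3 to 87.8 on slide 1 and 46.4 to 49.1 on the others. The 75th percentile of signal was 577 to 1184 in CONT and 387 to 1082 in REST. CONT cow 8027 had the lowest mean of the mammary epithelium markers (6.31, against a CONT median of 7.23) and of the endothelium markers (-1.68, against 0.20). That cow was also lowest for the adipose, skeletal muscle, macrophage, B and plasma cell and red blood cell markers. It was highest for the T cell and the fibroblast and matrix markers, and at neither end for the neutrophil markers. Its array had the highest 75th percentile (1184).

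Of the 8 genes, 5 had a higher mean in REST (SLC25A20, CPT1B, CRAT, SLC22A5 and ACSL1) and 3 a lower one (CPT2, ACSL3 and ACSL5). Over all probes of the array, 46.1% had a higher mean in REST. The median log2 FC of the 8 genes was 0.40, and that of all probes was -0.02. Because the genes were chosen with earlier results of these data known, these contrasts with all probes are a description only. SLC25A20 and CPT1B had an unadjusted p under 0.05. All REST cows lay above all CONT cows for 32 probes of the array (0.0733%), and for 0 of the 21 probes described here.

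**Figure D1:**
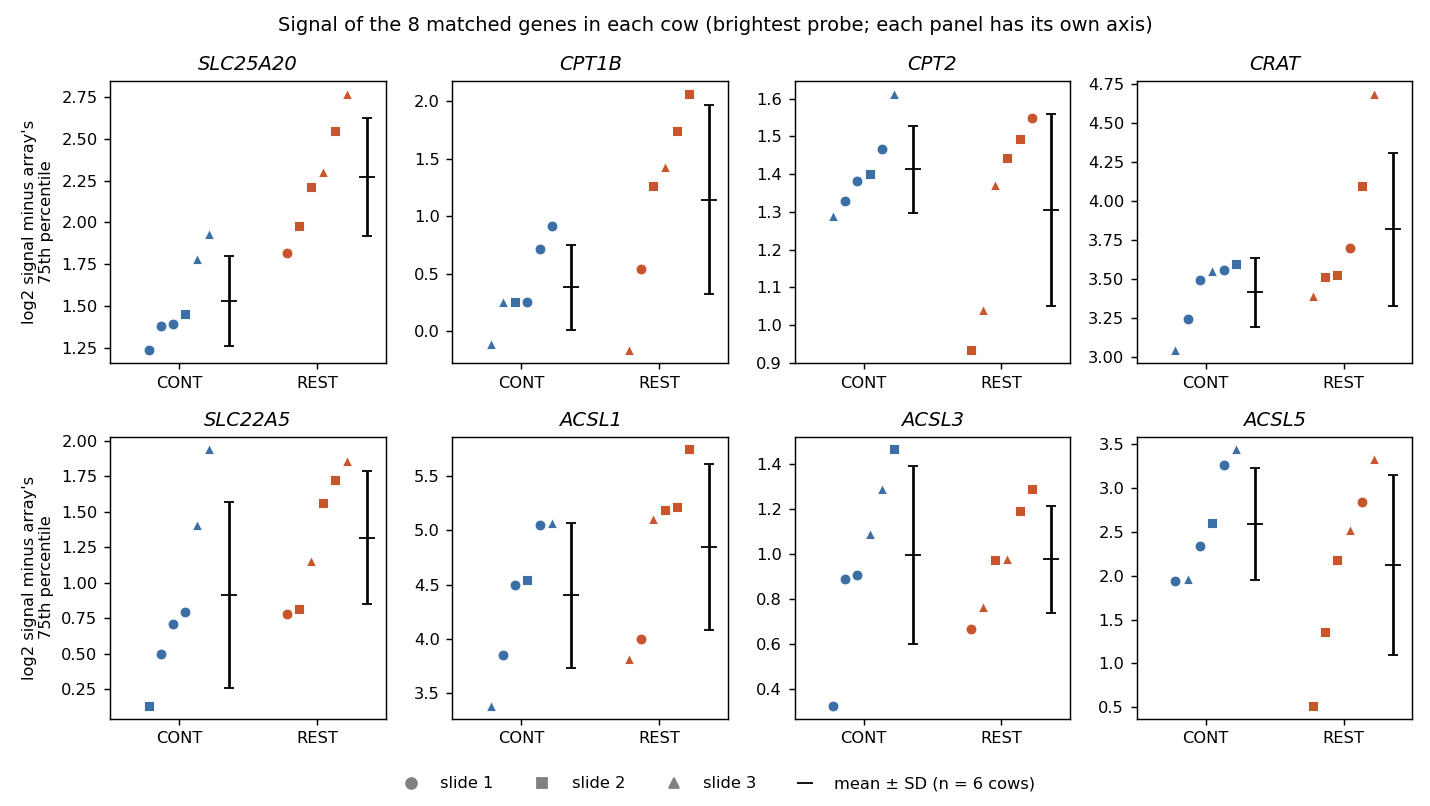
Log2 signal minus the 75th percentile of the array (vertical axes, one scale per panel) of the brightest probe of each gene in each CONT and REST cow. Symbols give the slide, and bars give the mean ± SD of 6 cows. For SLC25A20, 5 of 6 REST cows lie above every CONT cow, and for the other genes the diets overlap more widely.

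In the carnitine system, SLC25A20 had the clearest separation of the diets. Its single probe (NM_001077936) read, from lowest to highest, 1.23, 1.38, 1.39, 1.45, 1.78 and 1.93 in the CONT cows. The REST cows read 1.81, 1.98, 2.21, 2.30, 2.55 and 2.77. Only REST cow 0078, at 1.81, fell inside the range of CONT, below CONT cow 0015 at 1.93. The FC was 1.67 (95% interval 1.25 to 2.24), and all 6 REST cows were above the CONT mean (limma, unadjusted p = 0.0023, BH-adjusted p = 1.00, exact permutation test over the cows, two-sided, p = 0.0043, not adjusted).

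The difference in SLC25A20 had the same sign on each slide. REST minus CONT was 0.48 on slide 1, 0.79 on slide 2 and 0.68 on slide 3 on the log2 scale, although slide 1 holds a single REST cow and slide 2 a single CONT cow. With 1 cow left out at a time the log2 FC was 0.64 to 0.83, and over all 22 other settings its unadjusted p (limma) stayed under 0.05, with a highest value of 0.028. The 3 CONT cows on slide 1 were the lowest 3 of the 12. Within diets, SLC25A20 was lower where the negative controls were brighter (r = -0.61, permutation p = 0.042, rho -0.52, 12 cows, and r = -0.71 without REST cows 7043 and 1058). That relation did not pass BH over its family of 24, and r was 0.16 with slide removed as well.

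CPT1B was higher in most REST cows but not in all. Its brightest probe (NM_001034349) read -0.11, 0.26, 0.26, 0.26, 0.72 and 0.92 in CONT. In REST it read -0.16, 0.55, 1.26, 1.42, 1.74 and 2.06. REST cow 1058, which had the highest SLC25A20 signal of all, had the lowest CPT1B signal of all, while 4 REST cows were above every CONT cow.

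The FC of CPT1B was 1.70 (95% interval 1.01 to 2.85), with an unadjusted p of 0.046 (limma), a BH-adjusted p of 1.00 and a p of 0.071 in the exact permutation test, two-sided. Without REST cow 1058 the log2 FC was 1.02 instead of 0.76, and without REST cow 1015 it was 0.58 with an unadjusted p of 0.11 (limma). Within slides it was -0.09, 1.43 and 0.56. In the fit with slide as a block it was 0.63 with an unadjusted p of 0.095 (limma), so CPT1B was no longer under 0.05 there. The unadjusted p was under 0.05 in 12 of 22 other settings. Both remaining CPT1B probes were well above background on no more than 2 arrays of either diet, gave log2 differences of -0.03 and -0.40, and did not follow the bright probe across cows (r = -0.0016 and -0.25). The mean over all 3 probes was 0.11.

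CPT2 was the steadiest of the genes, with a spread of 0.68 log2 units over the 12 cows. CONT cows read 1.29 to 1.61 (median 1.39), and REST cows 0.93 to 1.55 (median 1.41). REST cows 0049 and 1018 were below every CONT cow, at 0.93 and 1.04, and the other 4 lay within the CONT range. The FC was 0.93 (95% interval 0.74 to 1.16, limma, unadjusted p = 0.48). The log2 FC of -0.11 was -0.03 without REST cow 0049, -0.06 without REST cow 1018 and -0.07 without CONT cow 8027, and -0.18 without the arrays of slide 1. A dimmer CPT2 probe, which 1 CONT array did not measure well above background, gave a log2 difference of 0.25 (95% interval -0.24 to 0.74), and the mean of both probes was 0.07, so the sign depends on the probe.

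CRAT was higher in REST on both of its probes. The brightest (NM_001075587) read 3.04 to 3.59 in CONT (median 3.52) and 3.39 to 4.68 in REST (median 3.61). REST cows 1058 (4.68) and 7043 (4.10) stood above the rest, and REST cow 0078 (3.69) was also above every CONT cow. The FC was 1.32 (95% interval 0.94 to 1.85, limma, unadjusted p = 0.095, exact permutation test, two-sided, p = 0.097). The other probe, which followed the first across cows (r = 0.93), had an FC of 1.36 (95% interval 1.00 to 1.85, limma, unadjusted p = 0.049) with 6 of 6 REST cows above the CONT mean. Without REST cow 1058 the log2 FC of the brightest probe fell from 0.40 to 0.23.

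SLC22A5, the carnitine uptake transporter, read 0.13 to 1.94 in CONT (median 0.75) and 0.78 to 1.86 in REST (median 1.36). The highest cow was CONT cow 8027, and every REST cow lay within the range of CONT. The FC was 1.32 (95% interval 0.83 to 2.11, limma, unadjusted p = 0.22). Leaving out CONT cow 8027 raised the log2 FC from 0.40 to 0.61, with an unadjusted p of 0.047 (limma), and leaving out CONT cow 9040, the lowest, lowered it to 0.25. Within slides REST minus CONT was 0.11, 1.24 and -0.16. A second probe, also well above background on all arrays, gave 0.29.

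**Figure D2:**
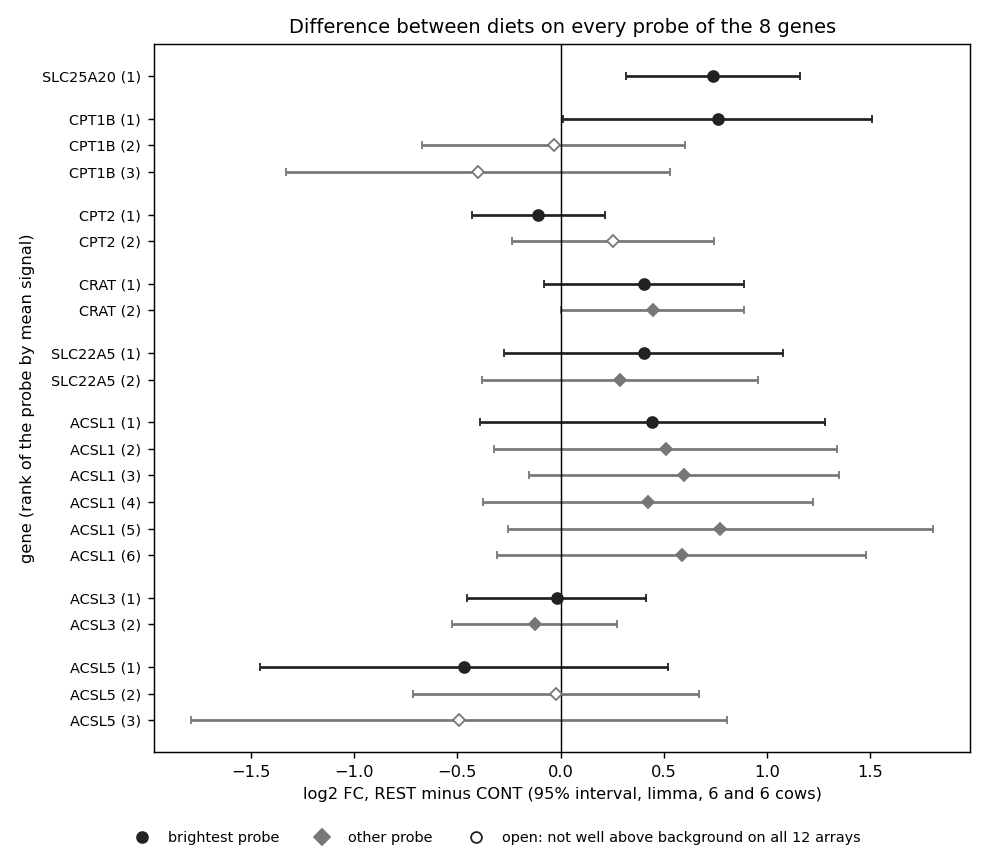
Log2 FC of REST over CONT (horizontal axis) with 95% intervals from limma for all 21 probes, grouped by gene (vertical axis) and numbered by mean signal within the gene. Open symbols are probes not well above background on all 12 arrays. The intervals of SLC25A20, the brightest CPT1B probe and the second CRAT probe do not include 0.

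Among the synthetases, ACSL1, an isoform well known from tissues that store or oxidize FA, had 6 probes, and all 6 had a higher mean in REST. The brightest read 3.38, 3.85, 4.50, 4.55, 5.05 and 5.07 in CONT. In REST it read 3.81, 4.00, 5.10, 5.19, 5.22 and 5.74. REST fell into 4 cows above every CONT cow and 2 cows (1018 and 0078) below the CONT mean. The FC was 1.36 (95% interval 0.76 to 2.43, limma, unadjusted p = 0.27).

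The log2 FC over the 6 ACSL1 probes was 0.42 to 0.77, and all 6 were well above background on all arrays. Probes of ACSL1 ranked the cows nearly alike, with r of 0.93 to 0.99 over the 15 pairs of probes, and the 6 are repeated readings of the same 12 biopsies. With slide as a block the difference of the brightest was 0.20, and within slides it was -0.47, 0.84 and 0.23. It was 0.24 without CONT cow 8027 and 0.65 without REST cow 1018.

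ACSL3, an endoplasmic reticulum and lipid droplet isoform, had nearly the same mean in both diets before slides were taken into account. It read 0.32 to 1.46 in CONT (median 1.00) and 0.66 to 1.29 in REST (median 0.97), with every REST cow inside the CONT range. The FC was 0.99 (95% interval 0.73 to 1.33, limma, unadjusted p = 0.93). Its other probe gave a log2 difference of -0.13, and the sign of the brightest changed in 7 of 22 other settings. Within slides the log2 difference was -0.04, -0.31 and -0.32, and it was -0.24 both with slide as a block (limma, unadjusted p = 0.20) and without the arrays of slide 1.

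ACSL5, found on mitochondria and endoplasmic reticulum, had the widest spread of signal over the 12 cows. Its brightest probe read 1.93, 1.96, 2.34, 2.61, 3.27 and 3.44 in CONT. In REST it read 0.51, 1.36, 2.18, 2.52, 2.84 and 3.33. REST cows 0049 and 1015 were below every CONT cow, and the other 4 lay inside the CONT range. The FC was 0.72 (95% interval 0.36 to 1.43, limma, unadjusted p = 0.32).

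Without REST cow 0049 the log2 FC of ACSL5 moved from -0.47 to -0.15, without REST cow 1018 it was -0.71, and with slide as a block it was -0.19. Within slides it was 0.32, -1.25 and 0.22. Of the dimmer probes, the second exceeded background clearly in 4 CONT cows and all 6 REST cows, and the third in 4 CONT cows and 3 REST cows. With that limit, their r with the brightest across cows was 0.82 and 0.86, and their log2 differences were -0.02 and -0.49.

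**Figure D3:**
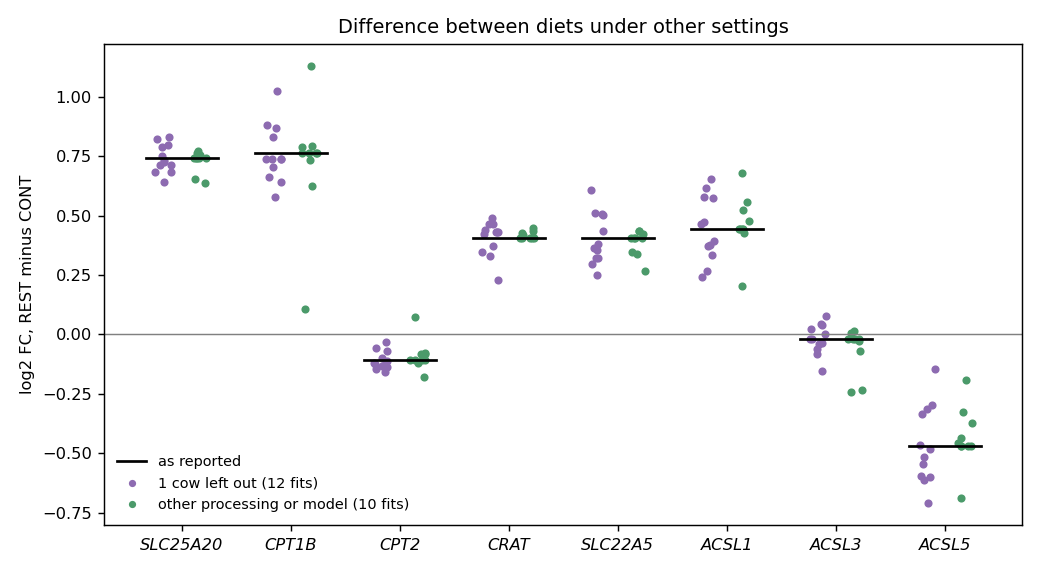
Log2 FC of REST over CONT (vertical axis) of each gene as reported (black line), with each cow left out (purple) and under 10 other processing or model settings (green). SLC25A20 stays between 0.64 and 0.83, CPT1B runs from 0.11 to 1.13, and the sign of CPT2 and ACSL3 is not fixed.

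By the SD within diets, cows differed most in ACSL5 and ACSL1 among the 8 genes, followed by CPT1B and SLC22A5. Over the 12 cows the highest signal was 7.62 times the lowest for ACSL5 and 5.14 times for ACSL1, against 4.68 times for CPT1B, 3.50 times for SLC22A5, 2.89 times for SLC25A20 and 1.60 times for CPT2. REST cow 0049 set one end of the range of ACSL5 and of ACSL1, and without it these were 4.25 and 3.57 times, both below the range of CPT1B, in which that cow was at neither end. The within-diet SD was 0.86 for ACSL5, 0.72 for ACSL1, 0.64 for CPT1B and 0.57 for SLC22A5, against a median of 0.33 over the 9001 named genes well above background on all arrays. Of those genes, 93.3% had a smaller SD than ACSL5, 88.7% than ACSL1, 84.2% than CPT1B, 79.2% than SLC22A5 and 15.5% than CPT2.

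ACSL1 and ACSL5 ran in opposite directions from cow to cow. REST cow 0049 had the highest ACSL1 and the lowest ACSL5 of all 12 cows, and CONT cow 8027 had the lowest ACSL1 and the highest ACSL5. After the mean of each diet was removed, r was -0.86 (permutation p = 0.00079, BH-adjusted over 28 pairs of genes 0.022) and Spearman's rho was -0.80 (permutation p = 0.0044, BH-adjusted 0.12). The relation was seen in both diets (r = -0.88 in CONT and -0.87 in REST, 6 cows each). It was -0.79 without CONT cow 8027 and REST cow 1018, the cows farthest from the median of ACSL1, and -0.82 with slide removed too. Of the 28 pairs, this was the only pair to pass on Pearson's r, and the median r over the pairs was 0.04. SLC25A20 and CPT1B, the 2 genes with an unadjusted p under 0.05, had an r of -0.45 within diets (permutation p = 0.21, rho -0.34), which was -0.05 without REST cows 7043 and 1058.

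**Figure D4:**
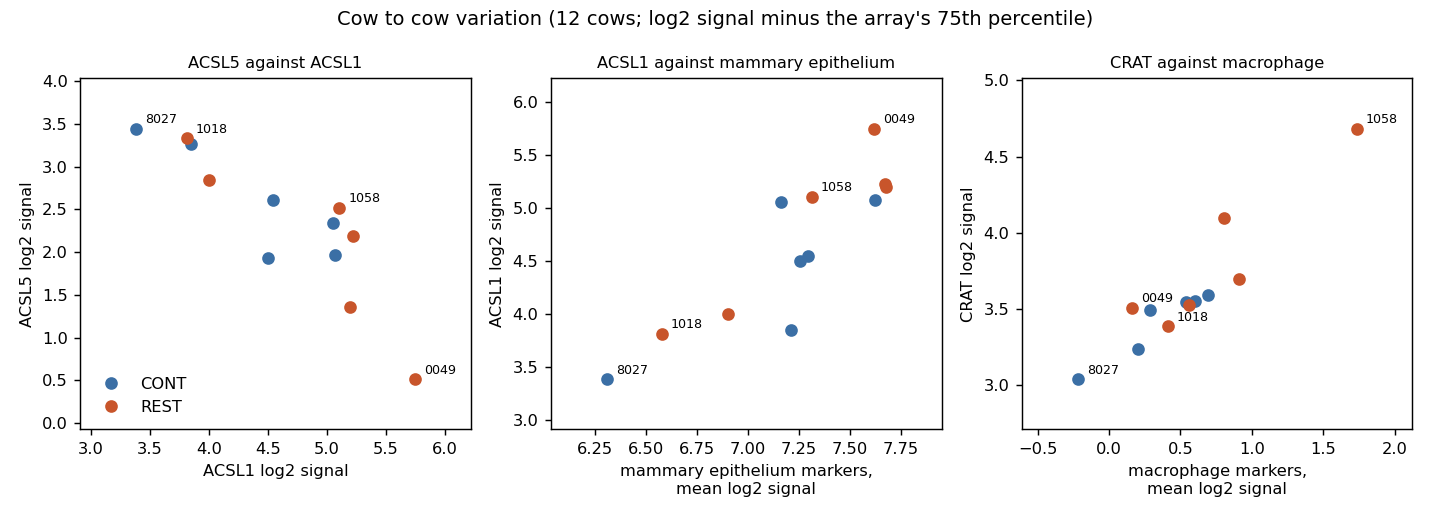
Each point is 1 cow, blue for CONT and orange for REST, and axes are log2 signals or the mean log2 signal of a marker list. The panels set ACSL5 against ACSL1 (left), ACSL1 against the mammary epithelium markers (middle) and CRAT against the macrophage markers (right). ACSL5 falls as ACSL1 rises, and the other 2 pairs rise together in both diets.

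A biopsy holds many cell types, and in bulk tissue fewer cells of a type and less RNA per cell cannot be told apart. The tissue label was checked against milk gene markers: 9 of 10 mammary epithelium markers were matched, all 9 were measured, and their mean log2 signal was 6.31 to 7.62 in CONT and 6.58 to 7.68 in REST. Marker lists of 10 cell types were set against the 8 genes within diets. Gene and list values of a cow have the same array percentile subtracted. That percentile was lowest in REST cow 0049 (387) and highest in CONT cow 8027 (1184). Its part in the correlations of genes with lists was not measured. Of these 80 relations, 10 passed BH on Pearson's r and 6 on both r and rho. Of the 10, 9 involved ACSL1 or ACSL5, which ran in opposite directions, so these relations are not independent of each other. Some lists also share an extreme cow. CONT cow 8027 was lowest on the mammary epithelium, adipose, B and plasma cell, red blood cell, skeletal muscle, macrophage and endothelium lists. It was highest on the T cell list and on the fibroblast and matrix list. How far the lists vary together was not measured.

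ACSL1 rose with the mammary epithelium list (r = 0.87, permutation p = 0.0015, BH-adjusted 0.015). Its rho was 0.76 (BH-adjusted 0.063), and r was 0.74 without REST cow 1018 and CONT cow 8027 and 0.83 with slide removed. ACSL5 fell as that list rose (r = -0.77, permutation p = 0.0034, BH-adjusted 0.029). Here rho was -0.79 (BH-adjusted 0.057), and r was -0.81 without REST cows 1015 and 0049 and -0.65 with slide removed. Both relations were smaller under quantile normalization, at 0.65 and -0.52. The list itself, caseins and lactalbumin among it, had 7 of 9 members higher in REST (median log2 FC 0.25) and 0 with an unadjusted p under 0.05 (limma).

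With the list named adipose, the correlations were larger. ACSL1 had r = 0.94 (permutation p = 0.00011, BH-adjusted 0.0029) and rho = 0.82 (BH-adjusted 0.048), with r = 0.88 without REST cow 1018 and CONT cow 8027. ACSL5 had r = -0.90 (permutation p = 0.00003, BH-adjusted 0.0024) and rho = -0.96 (BH-adjusted 0.0032), with r = -0.91 without REST cows 1015 and 0049. With slide removed r was 0.92 for ACSL1 and -0.87 for ACSL5. That list rests on FABP4, CFD, PNPLA2 and LPL, of which FABP4 and LPL are also known from lactating MG. ADIPOQ was not matched, and the brightest probes of PLIN1, LEP, CIDEC and LIPE were not well above background on all arrays of either diet. The list mean had a median of 4.05 in CONT and 4.06 in REST, with a highest value of 4.75 in CONT and 5.14 in REST, and 3 of the 4 genes had a higher mean in REST (median log2 FC 0.45).

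ACSL1 fell as the fibroblast and matrix list rose (r = -0.80, permutation p = 0.00088, BH-adjusted 0.010). Its rho was -0.90 (BH-adjusted 0.0086), and r was -0.85 without REST cow 1018 and CONT cow 8027 and -0.78 with slide removed. ACSL5 rose with the list (r = 0.80, permutation p = 0.0072, rho 0.82), a relation that did not pass BH (adjusted 0.052), and r was 0.50 without REST cows 1015 and 0049 and 0.81 with slide removed. All 5 members of that list (collagens, decorin and lumican) had a lower mean in REST (median log2 FC -0.65), and 3 had an unadjusted p under 0.05 (limma). The list mean was 2.95 to 3.42 in CONT and 1.81 to 3.39 in REST. ACSL1 and ACSL5 also passed on r with the red blood cell list, which rests on 2 genes (r = 0.82 and -0.85, rho 0.79 and -0.87), and with the B and plasma cell list (r = 0.87 and -0.77, rho 0.77 and -0.72). Between diets the median log2 FC of these lists was 0.13 and -0.05. The part of these cell types in the differences of ACSL1 and ACSL5 was not tested. The other lists (skeletal muscle, neutrophil, T cell and endothelium) passed with none of the 8 genes, and their median log2 FC between diets was -0.05, 0.23, -0.09 and 0.50. All 5 endothelium markers had a higher mean in REST, 1 of them with an unadjusted p under 0.05 (limma). For CPT2 and that list, r was -0.55 (permutation p = 0.0089, BH-adjusted 0.059) and rho -0.71 (BH-adjusted 0.060), which did not pass, and r was -0.72 without REST cows 1018 and 0049 and -0.63 with slide removed.

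CRAT was tied to the macrophage list (CD68, CD163, CD14, CSF1R and MSR1), with r = 0.92 (permutation p = 0.00058, BH-adjusted 0.0093) and rho = 0.89 (permutation p = 0.00021, BH-adjusted 0.0084). It was 0.95 in CONT, 0.92 in REST, 0.88 without REST cows 7043 and 1058, and 0.92 with slide removed. The macrophage list mean was -0.22 to 0.69 in CONT and 0.16 to 1.73 in REST, and REST cow 1058, with the highest CRAT, was also highest on the list. Without that cow r was 0.80. Of its 5 members, 4 had a higher mean in REST (median log2 FC 0.37), and the part of macrophages in the CRAT difference was not tested. SLC25A20 and CPT1B passed with none of the 10 lists. For SLC25A20 the lowest p was with skeletal muscle (r = -0.64, permutation p = 0.031, BH-adjusted 0.16, rho -0.71). There r was -0.69 without REST cows 7043 and 1058 and 0.22 with slide removed.

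Array brightness moved with some of these genes. Within diets, the 75th percentile of the array correlated with ACSL1 (r = -0.73, permutation p = 0.014, rho -0.76), ACSL5 (r = 0.73, permutation p = 0.017, rho 0.69), CPT1B (r = -0.63, permutation p = 0.064, rho -0.63) and ACSL3 (r = -0.63, permutation p = 0.022, rho -0.67). With slide removed these were -0.64, 0.66, -0.60 and -0.31. The percentile is itself subtracted from every value, which alone pulls r below 0, and the size of that part was not measured. Without the 2 cows farthest from the median of each gene, r was -0.73, 0.42, -0.40 and -0.78 in that order, so the relations of ACSL5 and CPT1B rest in part on those cows. ACSL3 was also lower where the negative controls were brighter (r = -0.63, permutation p = 0.043, rho -0.74). There r was -0.69 without CONT cows 9040 and 1076 and 0.49 with slide removed. None of the 24 relations with array measures passed BH, and the part of array brightness in the differences was not tested.

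The genes most like a member over the 12 cows were listed for SLC25A20, CPT1B and ACSL1, among 9000 other named genes. Closest to SLC25A20 were TMEM50B (r = 0.93, and 0.82 within diets), FANCG (0.89 and 0.74), HAUS4 (0.85 and 0.65), the clock gene PER1 (0.84 and 0.78) and SMARCD2 (0.83 and 0.76). Closest to CPT1B were BEND3 (r = 0.95), PCSK1N (0.94), PDIA2 (0.94), the glycerol-3-phosphate acyltransferase GPAT2 (0.94) and LSAMP (0.93). Within diets these were 0.92, 0.92, 0.91, 0.91 and 0.92 in that order. Closest to ACSL1 were THAP7 (r = 0.98), MIGA2 (0.97), H2AJ (0.97), LMF2 (0.97) and the aquaglyceroporin AQP3 (0.97). For these the within-diet values were 0.98, 0.97, 0.97, 0.97 and 0.97. Likeness was closer for ACSL1 than for SLC25A20, and these are the highest of many values, given as a description.

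Other genes of the pathway were taken from 4 lists with 54 genes, of which 46 were matched and 42 had a probe well above background on all arrays of at least 1 diet. Of the 42, 21 were higher and 21 lower in REST, 0 passed the adjusted test and 0 had an unadjusted p under 0.05 (limma), beside 2.62% of all probes. Their median log2 FC was 0.01.

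For other fatty acid activation, 6 of 12 measured genes were higher in REST and 6 lower. The mitochondrial acetyl-CoA synthetase ACSS1 was lower (log2 FC -0.58, SE 0.28, limma, unadjusted p = 0.060), while the FA transport protein SLC27A6 (0.57, SE 0.54) and ACSBG1 (0.38, SE 0.37) had higher means. ACSS1 read 5.28 ± 0.64 (SD, n = 6) in CONT and 4.69 ± 0.33 in REST. ACSBG2, SLC27A3, ACSM3 and ACSM5 were not matched to a probe.

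For the other carnitine system genes, 2 of 7 measured genes were higher in REST and 5 lower, all with log2 FC between -0.18 and 0.06. The organic cation transporter SLC22A4 had -0.18 (SE 0.75), ALDH9A1, an enzyme of carnitine synthesis, -0.11 (SE 0.18) and the carnitine transporter SLC22A16 -0.07 (SE 0.44). CPT1A, the liver-type isoform, and CPT1C were not matched, so CPT1B is the only CPT1 gene described here. Other probes of the array may target CPT1A and CPT1C, and the paper lists CPT1A as higher in REST.

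Malonyl-CoA, which blocks CPT1, is made by acetyl-CoA carboxylases and removed by MLYCD. Of the 7 genes measured, 5 had a higher mean in REST and 2 a lower one (median log2 FC 0.16). ACACA, the isoform of FA synthesis, had 0.48 (SE 0.70), the AMP-activated kinase subunit PRKAA2 0.30 (SE 0.32) and the mitochondrial carboxylase ACACB 0.20 (SE 0.34). The interval of each included 0, and STK11 was not matched.

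For acyl-CoA binding and hydrolysis, 8 of 16 measured genes were higher in REST. The FA binding protein FABP4 had the largest difference (log2 FC 1.20, SE 0.62, limma, unadjusted p = 0.073), from 5.92 ± 1.59 (SD, n = 6) in CONT to 7.13 ± 0.48 in REST. The thioesterase ACOT11 had 0.49 (SE 0.24) and DBI, the acyl-CoA binding protein, -0.48 (SE 0.27). ACOT1 was not matched.

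**Figure D5:**
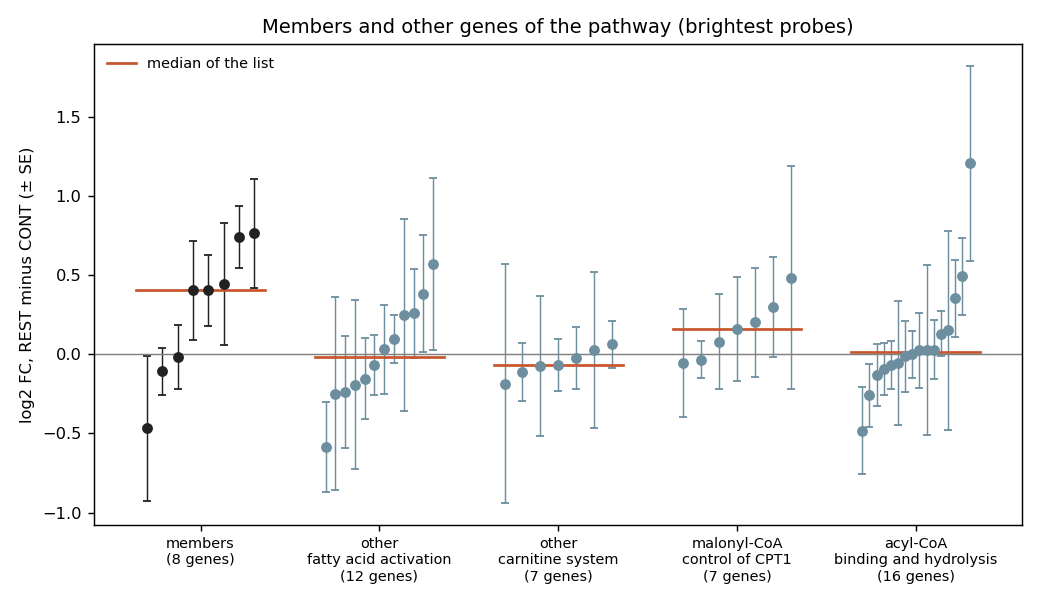
Log2 FC of REST over CONT ± SE (vertical axis, 6 cows per diet) for the brightest probe of the 8 genes and of the other measured genes in 4 pathway lists, ordered by value within a list. Orange lines are medians: 0.40 for the 8 genes, and between -0.07 and 0.16 for the other lists.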

How the data were processed

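The authors hybridized Cy3-labelled RNA (100 ng per cow) and extracted spots with Agilent Feature Extraction 11.0.1.1, per the labels and file headers. The deposited values are background-corrected intensity per spot, and the deposited series table held the same intensity values.

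Control spots and outlier flags were left out, spots of a probe were averaged, and log2 intensity minus the 75th percentile of each array was fitted with limma 3.58.1 (lmFit, eBayes, R 4.3.3) with diet as the term, after the fit was tested on simulated data. Westfall-Young used 100 divisions of the cows. Accessions were named through the RefSeq gene table (26832 probes), whose build differs from the array's, so no coordinates are given. Genes called not matched lack an accession there, and other probes of the array may target them. Correlations used 100000 resamples within diet, and leaving out 2 cows removed those farthest from the median of the first gene.

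Named genes are all members, genes of the pathway lists with an unadjusted p under 0.05 and up to 3 more per list by size of log2 FC, unmatched genes, and the 5 genes most like SLC25A20, CPT1B and ACSL1. Members and lists were chosen with earlier results of these data known. Marker correlations, named pairs and the fit without slide 1 were added after values were seen. Alternatives were quantile normalization, a percentile over detected probes, normexp (offset 50, median signals), the deposited table, kept outlier spots, a filter on dim probes, probes averaged per gene, slide as a block, eBayes with a trend on intensity, Westfall-Young and each cow left out. Member sequences were not analysed here.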

Additional observations from a re-analysis of the deposited data

Results flagged for a closer look

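In 1 of the 42 groups of 6 cows examined (21 probes in both diets), 1 cow stood far from the others, where chance gives about 2.1. On the third ACSL5 probe by signal, CONT cow 0015 read -6.01, while the other CONT cows lay between -4.37 and -3.59. That probe was well above background on 4 of 6 CONT and 3 of 6 REST arrays, and the brightest ACSL5 probe of the same cow, at 1.96, was not far from the others.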

How the results depend on the processing

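The count of called probes was 0 under all 22 alternatives, and 5 or 6 of the 8 genes were higher in REST. The count of genes with an unadjusted p under 0.05 was 1 instead of 2 with slide as a block and with each gene averaged over its probes (CPT1B was lost in both), and 1 to 2 with 1 cow left out. The CPT2 log2 FC turned to 0.073 with probes averaged. That of ACSL3 turned to 0.012 with the percentile over detected probes and 0.0062 with quantile normalization, and ranged from -0.15 to 0.076 with 1 cow left out, positive without CONT cows 9040 (0.076), 0015 (0.041) and 8027 (0.00081) and REST cows 0078 (0.044) and 1058 (0.024). Without the 4 arrays of slide 1, CPT1B was 1.13, ACSL1 0.68, ACSL5 -0.69, ACSL3 -0.24, CPT2 -0.18 and SLC22A5 0.27. The r of ACSL1 and ACSL5 was -0.78 with normexp and -0.82 to -0.90 with 1 cow left out. The cause of these shifts was not tested. No paired analysis was possible because the arrays are of 12 different cows and the labels give no number that ties a CONT cow to a REST cow. SLC25A20, CPT1B, CPT2 and ACSL5 each have 1 probe well above background on all 12 arrays.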
